A study of Gallus gallus with 9 samples.

Results

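In sorted GFP-positive cells of chick embryos, labelled as coelomic epithelium, 99 genes had a lower normalized read count in every one of 5 embryos electroporated with PtcDLoop2 than in any of 4 embryos electroporated with GFP alone. These 99 lower genes were chosen by their measured values: each had at least 10 normalized counts in at least 4 of the 9 libraries, and its highest PtcDLoop2 value was below its lowest control value. They make up 1.03% of the 9621 genes that passed the same filter on low values, out of 12155 genes in the deposited table. The opposite order was shown by 46 genes, or 0.478%. How many genes other divisions of the 9 libraries into 5 and 4 give was not tested, so neither count is set against chance. The contrast between the groups chose the 99 genes, so that their differences are given as a description, without a test.

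Hedgehog ligands bind the receptor Patched, which otherwise holds the membrane protein Smoothened inactive. Active Smoothened lets the Gli transcription factors switch on target genes, and Patched is itself such a target, which makes a feedback loop. In the early embryo the notochord, the floor plate of the neural tube and the gut endoderm are known sources of ligand, and mesoderm lying near them is known to respond. A Patched that cannot bind ligand keeps Smoothened inactive in the cells that carry it. Whether any of the lower genes is a target of the pathway was not tested.

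PtcDLoop2 is a Patched receptor without its ligand-binding loop. It was carried by the vector pCIG-PtcDLoop2, which also encodes GFP, whereas the control embryos received the vector pMES with GFP alone, so the groups differ in vector as well as in insert. Embryos of both groups were electroporated at Hamburger-Hamilton stages 12 to 13, incubated for 14 h to about stage 16, and sorted 1 by 1 for GFP, with each library made from 1 embryo, and the series text calls all 9 separate biological replicates. Of the 5 control embryos sorted according to the protocol, libraries of 4 are used here, and since the rule rests on the lowest control, another control library could change the list. The dissected piece ran from behind the heart to the tail end on both sides of the embryo, so the sort selected electroporated cells of that whole piece and not a cell type marker. In such bulk libraries, fewer cells of a type and less RNA per cell cannot be told apart.

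The files give genes as Ensembl numbers and do not pair them with names, and 0 of the 99 numbers were matched to a symbol. Markers of the coelomic epithelium, of other cell types and of the Hedgehog pathway are therefore not analysed here. The 2 lower genes with the smallest p in a limma-trend fit over all tested genes, ENSGALG00000012837 and ENSGALG00000025738, are given by number, and the others by their rank.

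Reads assigned to genes ran from 10388989 to 13517164 per library. PtcDLoop2 replicate 1, with 10074 genes above 0, and control replicate 4, with 10303, had the fewest detected genes, against 10742 to 11697 in the others. No difference between the groups was found in reads, in detected genes or in the share of normalized counts in the 10 most abundant genes. Two-sided exact permutation tests over 126 arrangements gave p = 0.603, 0.897 and 0.643, all 0.897 after adjustment over these 3 measures. The share of the 10 most abundant genes ran from 11.4% in PtcDLoop2 replicate 5 to 33.3% in control replicate 4. A p that misses the threshold does not show that the groups are alike. Limma-trend called 0 genes, or 0% of the 9621, at a Benjamini-Hochberg adjusted p under 0.05, with 459 genes at an unadjusted p under 0.05, and limma-voom called 0 with 397. About 1 in 20 genes reach such an unadjusted p where no difference exists, and neither count exceeds that share. Of the tested genes, 266 or 2.76% were lower at an unadjusted p under 0.05, and 75 of the 99 lower genes were among them, a number that the choice of the genes raises by itself.

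The 99 lower genes were mostly of moderate abundance. Their mean over the 9 libraries ran from 9.17 to 4279 normalized counts, with a median of 147 against 214 over all tested genes. A mean above 1000 was reached by 10 of the 99, or 10.1%, against 18.3% of all tested genes, and a mean under 100 was found for 35, or 35.4%, against 34.7%. In the control libraries the median of the 99 genes was 244, 196, 176 and 208 normalized counts in replicates 1 to 4. In the PtcDLoop2 libraries it was 79.2, 92.2, 125, 98.5 and 93.4 in replicates 1 to 5. The median of all tested genes lay between 193 and 209 in every library, so the lower genes sat near the middle of the transcriptome in the controls and below it with PtcDLoop2. Together the 99 genes took between 0.432% and 0.568% of a control library's normalized counts and between 0.261% and 0.32% of a PtcDLoop2 library's.

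**Figure D1:**
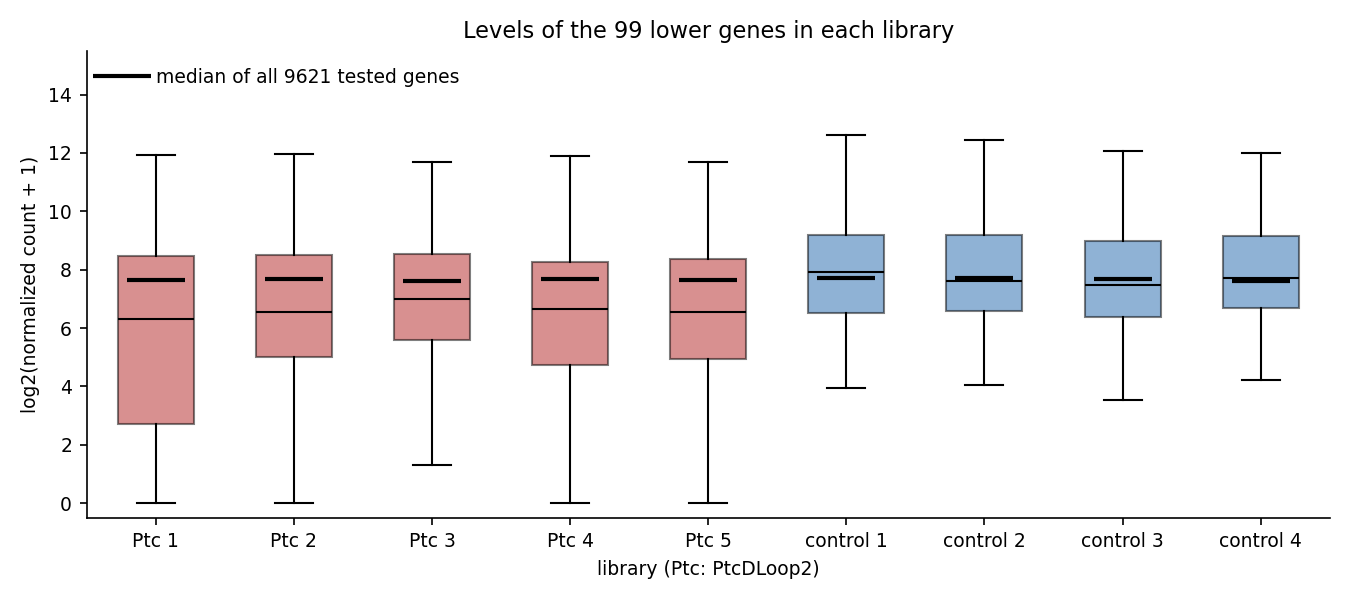
Levels of the 99 lower genes in each library as log2(normalized count + 1), with boxes for the quartiles, whiskers to the lowest and highest gene and a thin line for the median. The thick bar is the median of all 9621 tested genes. The boxes of the 5 PtcDLoop2 libraries have medians of 79.2 to 125 normalized counts, those of the 4 control libraries 176 to 244, and PtcDLoop2 replicate 1 has the lowest lower quartile.

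None of the 99 genes was at 0 in a control library, as the rule requires. In the PtcDLoop2 libraries 14 of the 99 were at 0 in at least 1 library and 5 in at least 2. PtcDLoop2 replicate 1 listed 11 of the 99 at 0, replicates 2, 4 and 5 listed 3 each and replicate 3 listed 0. Among all tested genes, 6.22% were at 0 in PtcDLoop2 replicate 1 and 0.197% in replicate 3. PtcDLoop2 replicates 2, 4 and 5 had 1.52%, 2.28% and 1.48% of all tested genes at 0, against 3.03% of the 99 in each. A 0 in a PtcDLoop2 library cannot break the rule, so the rule itself favours such genes. Only 2 of the 99 genes were under 10 normalized counts in all 5 PtcDLoop2 libraries while at or above 10 in all 4 controls, and 66 of the 99, or 66.7%, were at 10 or more in all 9 libraries, against 74.2% of all tested genes.

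The size of the difference varied widely. The ratio of the control mean to the PtcDLoop2 mean ran from 1.19 to 23.6 with a median of 2.11, against a median of 0.998 over all tested genes. At least 2-fold lower means were found for 56 of the 99 genes, at least 4-fold for 16 and at least 8-fold for 4. Among all tested genes these shares were 5.49%, 1.09% and 0.146%. The fold was larger in less abundant genes: its median was 3.55 in the 33 least abundant of the lower genes, 2.3 in the 33 of middle abundance and 1.55 in the 33 most abundant. The spread between PtcDLoop2 embryos followed the same order, with median coefficients of variation of 71%, 37.6% and 17.4%. Where the spread is wide, only a large fold separates the groups fully, so the rule itself favours this order.

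**Figure D2:**
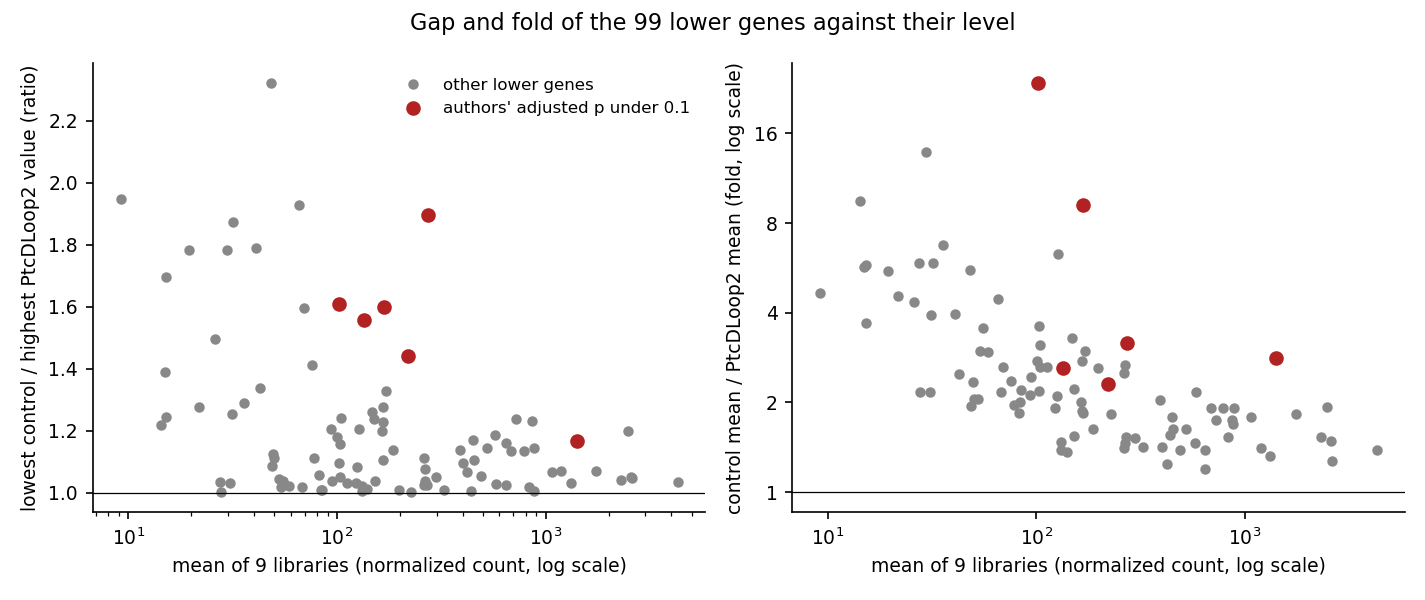
The 99 lower genes by their mean over the 9 libraries, on a log axis, against the ratio of the lowest control to the highest PtcDLoop2 value (left) and the ratio of the group means on a log axis (right). Red points are the 6 genes with an adjusted p under 0.1 in the authors' deposited table. The median of each ratio is highest in the 33 genes of lowest level, at 1.24 and 3.55, while the largest single fold, 23.6, is in a gene of middle level, and all 5 genes with the highest level have a gap ratio of 1.2 or less.

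ENSGALG00000025738 was the lower gene with the smallest adjusted p in the authors' deposited table and had the 4th widest gap. Its normalized counts were 171, 121, 143, 171 and 88.9 in PtcDLoop2 replicates 1 to 5 and 493, 325, 450 and 494 in control replicates 1 to 4. Its lowest control, replicate 2, was 1.9 times its highest PtcDLoop2 library. The group means were 139 ± 35.1 (SD, n = 5) and 440.2 ± 79.6 (SD, n = 4), a 3.17-fold lower mean. The limma log2 fold change of ENSGALG00000025738 was -1.68 ± 0.31 (SE).

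ENSGALG00000012837 was the 7th most abundant of the 99. It had 583, 534, 1265, 808.5 and 718 normalized counts in PtcDLoop2 replicates 1 to 5 and 2556, 2399, 1474 and 2362 in control replicates 1 to 4. Replicate 3 was the highest of the PtcDLoop2 libraries and replicate 3 the lowest of the controls, so that the groups were separated by a ratio of only 1.17 there. The means, 781.5 ± 291 (SD, n = 5) and 2198 ± 490 (SD, n = 4), differed 2.81-fold, and the limma log2 fold change of ENSGALG00000012837 was -1.53 ± 0.27 (SE).

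The authors' deposited table, made from the same libraries, lists all 99 genes as lower, with log2 fold changes from -4.55 to -0.25 and a median of -1.08. It gives 5 of the 99 an adjusted p under 0.05, where 6 lower genes or 0.0494% of its 12150 genes with a p-value reach this. At an adjusted p under 0.1 it has 6 of the 99, out of 7 lower genes or 0.0576%. Without adjustment, 79 of the 99 have a p under 0.05 in the authors' deposited table, out of 384 lower genes or 3.16%. These counts and the choice of the 99 genes use 1 contrast in 1 set of libraries, so nothing is read from them about the genes.

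Besides the pair named above, 4 lower genes had an adjusted p under 0.1 in the authors' deposited table. The third by that value had 70.9, 6.4, 82.6, 14.4 and 6.7 normalized counts in PtcDLoop2 replicates 1 to 5 and 561, 361, 132 and 276 in the controls. It varied strongly within both groups, with PtcDLoop2 replicates 1 and 3 well above the other PtcDLoop2 libraries, and its mean was 9.19-fold lower. The fourth had the largest fold of all 99, at 23.6, with 0, 0, 35.2, 5.1 and 6 normalized counts with PtcDLoop2 against 56.6, 489.5, 73.9 and 253 in the controls. Its control values fell into a high pair, replicates 2 and 4, and a low pair, replicates 1 and 3, and only PtcDLoop2 replicate 3 came near the low pair. Its fold was 78.6 without PtcDLoop2 replicate 3 and 13.8 without control replicate 2, and in 8 of the 99 genes leaving out 1 library moved the fold by over 1.5 times.

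The fifth and sixth were steadier. The fifth had 87.4, 80.5, 69.6, 60.5 and 93.4 normalized counts with PtcDLoop2 and 280, 150, 145 and 243 in the controls, with means of 78.3 ± 13.3 (SD, n = 5) and 205 ± 67.6 (SD, n = 4). The sixth had 132.5, 86.9, 136, 166 and 174 with PtcDLoop2 and 412.5, 251, 286 and 332 in the controls, with means of 139 ± 34.4 (SD, n = 5) and 320.3 ± 69.8 (SD, n = 4). In the fifth the PtcDLoop2 libraries lay close together, with a coefficient of variation of 17%, against 33% in its controls. In the sixth they ran from 86.9 to 174, with a coefficient of variation of 24.7% against 21.8% in its controls. Control replicate 1 was the highest library in both genes. The remaining lower gene with an adjusted p under 0.1 in the authors' deposited table was not among the 99, because control replicate 4, at 91.9 normalized counts, was below PtcDLoop2 replicate 2, at 98.5, while its other controls ran from 216 to 631.

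**Figure D3:**
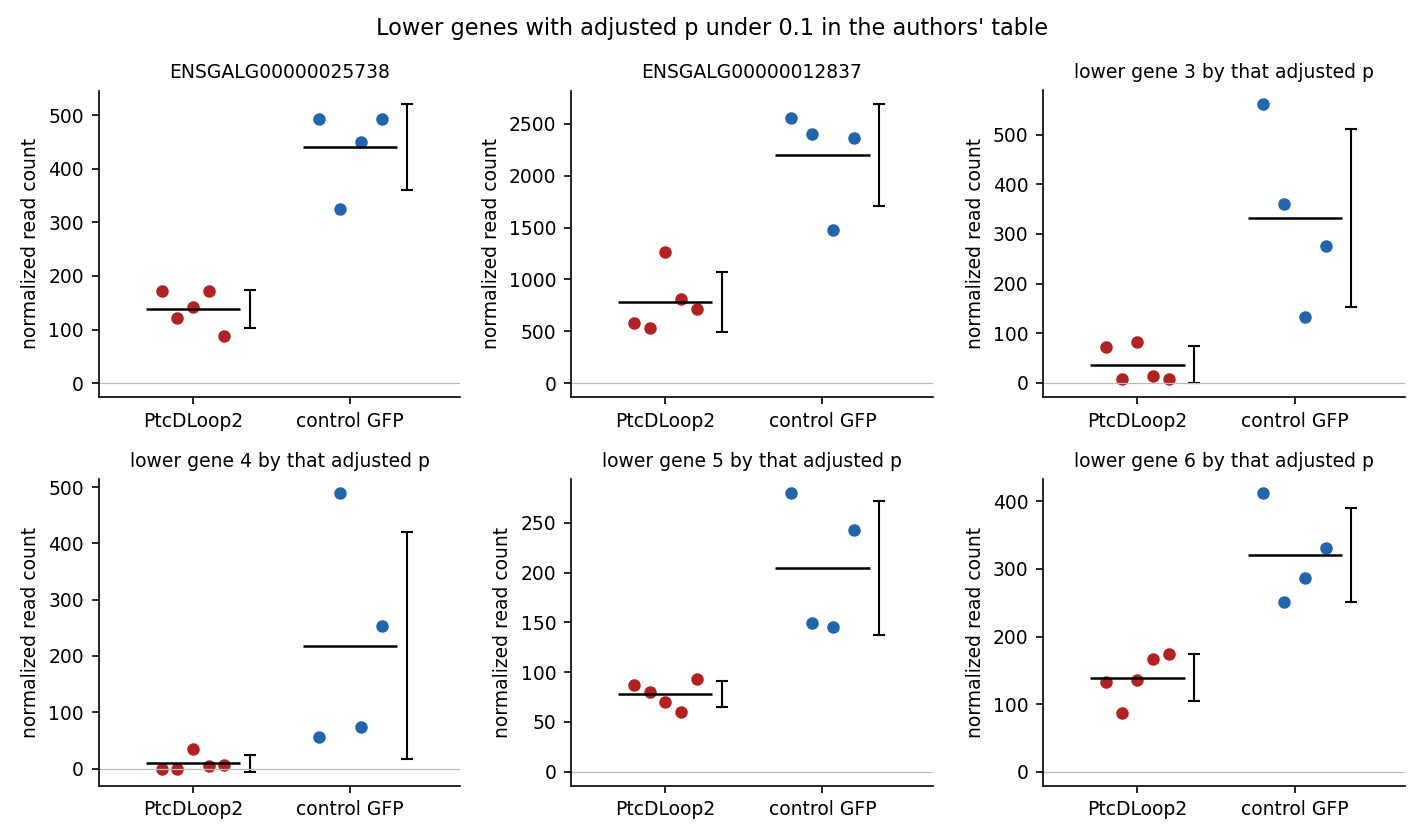
Normalized read counts of the 6 lower genes with an adjusted p under 0.1 in the authors' deposited table, 1 point per embryo, with replicates in order from left to right within a group. Horizontal lines are group means and bars are ± 1 SD (5 PtcDLoop2 and 4 control embryos). In every panel all red points are below all blue points, and in ENSGALG00000012837 the highest red and the lowest blue point are both replicate 3.

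The 10 widest gaps, by the ratio of the lowest control to the highest PtcDLoop2 value, were between 1.61 and 2.32, and 8 of the 10 belonged to genes outside the authors' list at an adjusted p under 0.1. The widest was in a gene with 4.6, 24.4, 29.1, 1 and 20.2 normalized counts with PtcDLoop2 and 67.5, 93.5, 91.9 and 99.6 in the controls. Its means were 15.9 ± 12.4 (SD, n = 5) and 88.1 ± 14.1 (SD, n = 4), a 5.56-fold lower mean with even control values. The second widest belonged to the least abundant of the 99 genes, with 5.5, 5.3, 4.6, 2.1 and 0 against 19.2, 17.6, 10.7 and 17.5 normalized counts. This gene rested on few reads, at most 6 in a PtcDLoop2 library and 13 in its lowest control.

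The third widest gap was in a gene listed at 0 in PtcDLoop2 replicate 1 and at 43.4, 26.8, 16.4 and 42.6 in the other PtcDLoop2 libraries, against 156, 94.4, 83.7 and 126 in the controls. The fifth to ninth widest were in genes with PtcDLoop2 means from 4.42 to 17.6 and control means from 28.1 to 69.7 normalized counts. In the eighth the PtcDLoop2 values were 0.9, 0, 16.1, 5.1 and 0 against 43.8, 83.3, 28.7 and 88.7, and PtcDLoop2 replicate 3 and control replicate 3 were again the nearest libraries. Its fold was 13.8 with all libraries and 40.8 without PtcDLoop2 replicate 3. A wide gap was thus most often seen at a low level. The 33 least abundant of the 99 had a median gap ratio of 1.24 and the 33 most abundant one of 1.07. The part of few reads in this order was not tested, and the widest gap of all rested on 74 reads in its lowest control against at most 38 with PtcDLoop2.

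The 5 most abundant of the lower genes had means from 1747 to 3654 normalized counts with PtcDLoop2 and differed less than most. The most abundant had 3907, 3966, 3283, 3789 and 3322 normalized counts in PtcDLoop2 replicates 1 to 5 and 6304, 5588, 4250 and 4101 in the controls. Control replicates 3 and 4 were close to the PtcDLoop2 range, and its mean was 1.39-fold lower. The largest fold among these 5 was in the fourth most abundant, with 1815, 1840, 2009, 2182 and 886 against 3590, 3439, 2616 and 3843 normalized counts. Its mean was 1.93-fold lower, and PtcDLoop2 replicate 5 stood well below the other 4 PtcDLoop2 libraries. The remaining 3 had folds from 1.27 to 1.53 and gap ratios from 1.04 to 1.05.

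Most of the separations were narrow. The gap ratio had a median of 1.11 over the 99 genes, and it was at least 1.1 in 53 of them, at least 1.5 in 13 and at least 2 in 1. The 3 genes just inside the limit of the rule had highest PtcDLoop2 values of 248, 28.4 and 429 against lowest control values of 248.2, 28.5 and 431. The 3 genes just outside had highest PtcDLoop2 values of 30.6, 1543 and 37.1 against lowest control values of 30.6, 1539 and 36.9. Genes on either side of the limit thus differed by a few normalized counts at most.

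The scaling of the libraries also decided which genes belonged. The same rule gave 90 genes when each library was scaled to its total reads, 90 with trimmed mean of M-values factors, 93 with upper quartile scaling and 91 with reads thinned to the shallowest library. Of the 99 genes, 68, 89, 82 and 65 were found again in these 4 settings, and 56 in all 4. The thinned reads were also scaled to their total, so the first and the last setting share their scaling and are not independent. The wider the gap the more often a gene was found again, from 15 of the 46 genes with a gap ratio under 1.1 to 28 of the 40 from 1.1 to 1.5 and 13 of the 13 from 1.5. A scaling multiplies a library by 1 factor, so a wide gap is hard to close and this order is largely fixed in advance. Both ENSGALG00000025738 and ENSGALG00000012837 and all 6 genes with an adjusted p under 0.1 in the authors' deposited table were found in all 4 settings, as were the 10 with the widest gaps and 3 of the 5 most abundant.

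**Figure D4:**
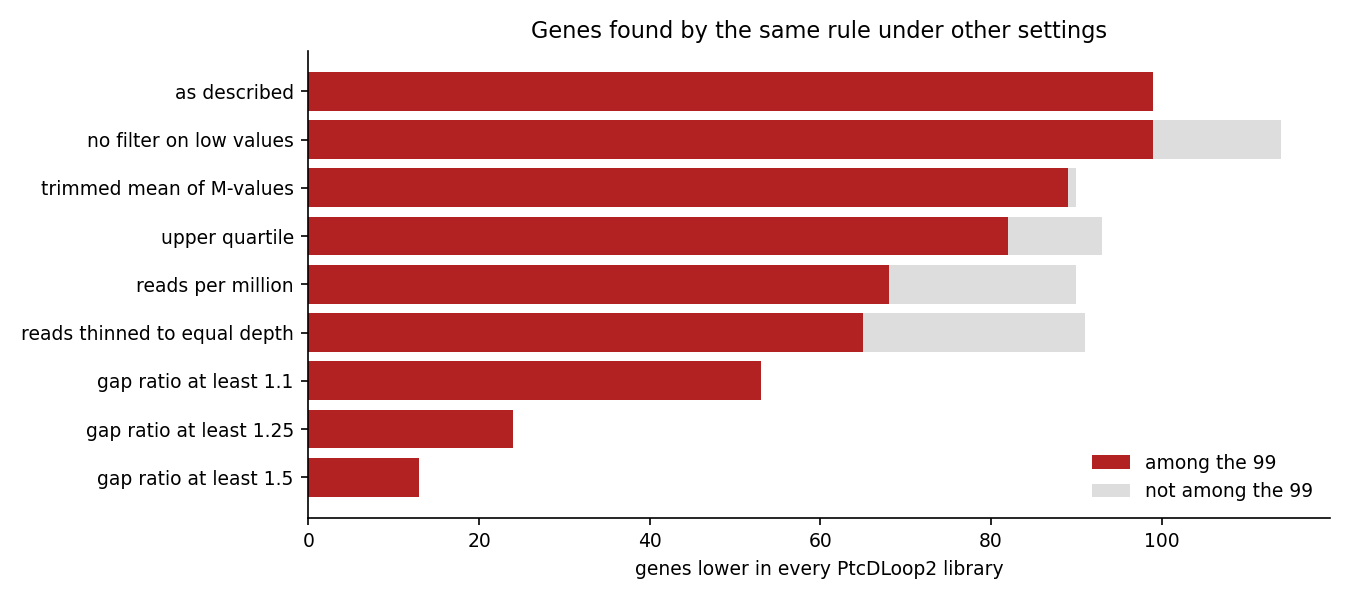
Number of genes lower in every PtcDLoop2 library under the rule as described and under 8 other settings of filter, scaling and gap. Red bars count genes among the 99 and grey bars genes that are not among them. Of the 4 scalings, trimmed mean of M-values keeps 89 of the 99 and reads thinned to equal depth keep 65.

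In the 99 genes, PtcDLoop2 replicate 3 was most often the PtcDLoop2 library nearest to the controls. It alone held the highest PtcDLoop2 value in 41 of the 99 genes, or 41.4%, against 15.6% of all tested genes, and each of the other 4 held it in 12 to 17. The median log2 ratio of PtcDLoop2 replicate 3 to the other PtcDLoop2 libraries was 0.56 over the 99 genes and 0.08 over all tested genes. Among the controls, replicate 3 was most often the nearest to PtcDLoop2. It held the lowest control value in 42 of the 99, or 42.4%, against 21.2% of all tested genes, with a median log2 ratio to the other controls of -0.28 against 0.07. PtcDLoop2 replicate 3 was also the library with the most reads, 13517164, and the most detected genes, 11697. Over all tested genes it held the highest value of its group in 15.6% and the lowest in 13.6%, less often than any other PtcDLoop2 library. A library that scatters widely tends to remove a gene where it is the extreme one. The rule thus partly sets which library is nearest, and no trait of the embryos is read from these shares. In 18 of the 99 genes, or 18.2%, both replicates 3 were the nearest, against 3.41% of all tested genes. The separate share of each of these libraries was already higher among the 99, which raises the joint share by itself. Whether these embryos coincide more often than their separate shares give was not tested.

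These are the embryos that cross the groups in a separate set of 12 all-or-none genes. Those 12 genes, of which 0 are among the 99, were at 101.7 normalized counts or more in PtcDLoop2 replicate 3 and control replicates 1, 2 and 4, and at 1.6 or less in the other 5 libraries. The part of this difference between embryos in the lower genes was not tested. Without PtcDLoop2 replicate 3 and control replicate 3 (a choice made on seeing the values), the median ratio of control to PtcDLoop2 means of the 99 genes was 2.37 in place of 2.11. Between these 2 libraries alone it was 1.42. They most often held the highest PtcDLoop2 and the lowest control value of the 99 genes. Both changes of the ratio are therefore largely built in, and nothing is read from them about the all-or-none difference. Limma-trend without both libraries called 28 genes at an adjusted p under 0.05, 24 of them lower, which include the 12 all-or-none genes by which these libraries were picked. Of the 99 genes it called 1, ENSGALG00000012837, with a log2 fold change of -1.90 ± 0.24 (SE). The 2 libraries left out held the highest PtcDLoop2 and the lowest control value of this gene. Leaving them out therefore widens its difference by construction, and nothing is read from this call. In the 46 genes with the opposite order, PtcDLoop2 replicate 3 alone held the lowest PtcDLoop2 value in 14, or 30.4%, against 13.6% of all tested genes. Control replicate 3 alone held the highest control value in 16, or 34.8%, against 21.6%, and control replicate 2 in 19, or 41.3%, against 19.7%. No test was made of the difference between the 2 lists.

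**Figure D5:**
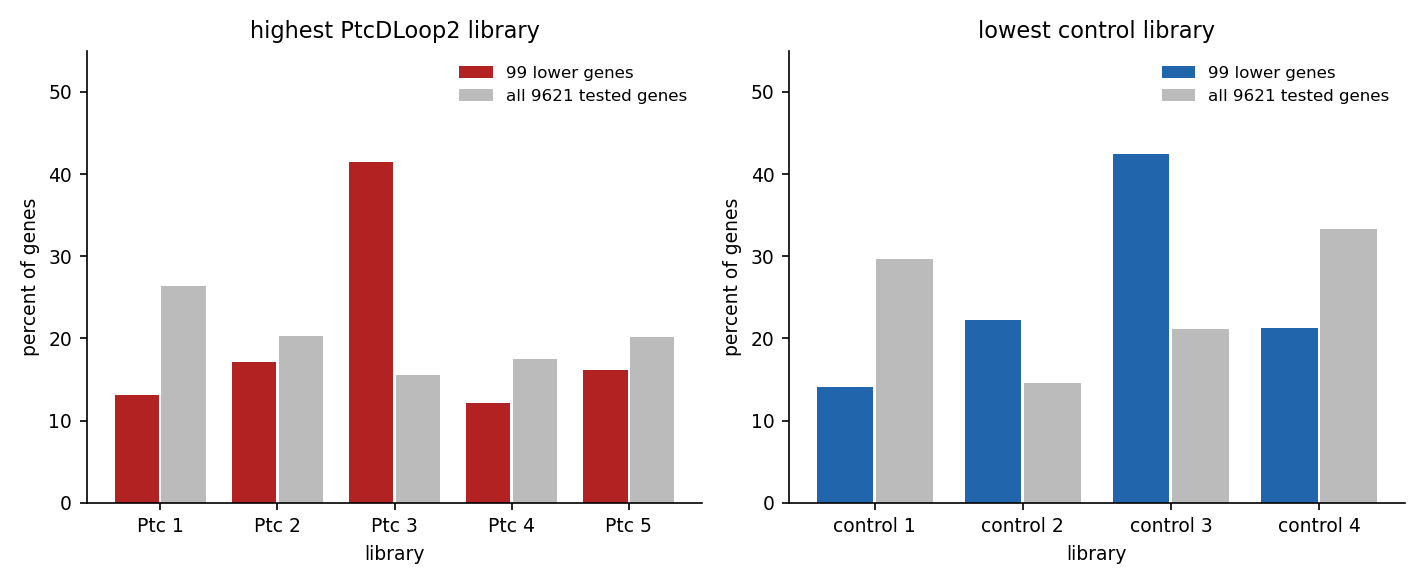
Percent of genes in which each PtcDLoop2 library alone held the highest value of its group (left) and each control library alone held the lowest value of its group (right). Coloured bars are the 99 lower genes and grey bars all 9621 tested genes. PtcDLoop2 replicate 3 holds the highest value in 41.4% of the lower genes and control replicate 3 the lowest in 42.4%.

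PtcDLoop2 replicate 1, the library with the fewest detected genes, was the lowest of its group in 42 of the 99 genes, or 42.4%, against 27.5% of all tested genes. In 24 of the 99, or 24.2%, it lay more than 2 log2 units below the mean of the other PtcDLoop2 libraries, against 12.1% of all tested genes. A low PtcDLoop2 value never breaks the rule while a high one can, so the rule itself favours both shares among the 99. These 24 genes had a median level of 72.7 normalized counts. Without PtcDLoop2 replicate 1 all 24 had a control mean at least 1.5 times the PtcDLoop2 mean, and their median ratio was 2.45 in place of 3.04. The rule fixes a control mean above the PtcDLoop2 mean whichever library is left out, so only the size of the ratio is described. Over all 99 genes the median ratio was 1.95 without PtcDLoop2 replicate 1, 2.05 without control replicate 4 and 1.94 without both.

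Within the groups the lower genes varied together only weakly. After the group mean was subtracted on the log2 scale, the correlation over the 9 libraries had a median of 0.14 over the 4851 pairs of lower genes and of -0.001 over all pairs of tested genes. A correlation above 0.8 was reached by 5.75% of the pairs of lower genes and by 1.87% of all pairs. All pairs share the same 9 libraries, and without PtcDLoop2 replicate 1 the median was 0.12 for the lower genes. The rule also shapes which library is highest or lowest, so part of the excess over all pairs can be built in. The median coefficient of variation of the 99 genes was 21.8% in the controls, against 39% over all tested genes, and 36.2% against 40.1% with PtcDLoop2. The rule favours genes with a small spread, since a single high PtcDLoop2 or low control library removes a gene.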

How the data were processed

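Reads of 9 libraries, 5 PtcDLoop2 and 4 control GFP, had been trimmed, aligned and counted by the authors. STAR 2.4, cutadapt 1.8.3, DESeq, DESeq2, HTSeq 0.6.1p1 and build galGal4 are named in the submitters' processing notes, with settings not given in the sources used here. The deposited expression values are normalized counts with 1 decimal, and their steps show that the authors scaled whole counts by 1 factor in each library. The authors' deposited comparison table gives a mean signal in normalized counts, a log2 fold change, a p-value, an adjusted p-value and a mark per gene.

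Whole reads were recovered from each library's step, and all values lay within 0.1 normalized counts (at most 0.0535) of a whole number of reads. Genes with at least 10 in at least 4 libraries were kept. Limma 3.58.1 in R 4.3.3 (limma-trend, robust, log2(value + 1), group only, Benjamini-Hochberg threshold 0.05) was fitted on all 9621 kept genes, and its fold changes are on that log2(value + 1) scale. Depth was 10388989 to 13517164 reads per library, and the part of counting error in the spread between libraries was not tested.

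Genes chosen for description were those with an adjusted p under 0.1 in the authors' deposited table, the 10 with the widest gap and the 5 most abundant, 19 in all, with group values alone for the 6 nearest the limit. The 99 genes and these choices were made with earlier results of these data known. Ensembl numbers are given for 0 of the 25635 genes of the reference table, so the planned gene lists were not used. Alternatives were other filters, scalings, gap limits, pseudocounts, limma without robust estimation, limma-voom, a replicate block and leaving out libraries. Figures were drawn with matplotlib 3.10.9.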

Additional observations from a re-analysis of the deposited data

Results flagged for a closer look

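Highest and lowest values were examined in 50 sets, each a gene described with values or a library measure in 1 group, where chance alone marks about 1 in 20. Of these, 3 were marked, all in the PtcDLoop2 group. In the gene with the 10th widest gap, PtcDLoop2 replicate 3 had 35.2 normalized counts against 0 to 6 in the other 4 libraries of its group. In the fourth most abundant of the 99 lower genes, PtcDLoop2 replicate 5 had 886 normalized counts against 1815 to 2182. PtcDLoop2 replicate 1 listed 11 of the 99 lower genes at 0, against 0 to 3 in the others, and it is also the library with the fewest detected genes, at 10074. What set these libraries apart was not tested.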

How the results depend on the processing

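The count of genes lower in every PtcDLoop2 library was within 1.5 times of 99 under the other filters and scalings, at 114 without a filter, 100 at a mean of at least 10, 79 at a mean of at least 50 and 90 to 93 under the scalings. By construction, stricter limits on the gap gave fewer, 53 at a ratio of 1.1, 13 at 1.5 and 24 at a limit between these. Leaving out each library in turn gave from 139 to 265 genes, more than 1.5 times the count without PtcDLoop2 replicates 1 (165), 2 (186) or 3 (194) or without control replicates 1 (163), 2 (159), 3 (265) or 4 (254). All 99 remained each time, since the rule then has fewer libraries to pass. Without both libraries with the fewest detected genes it gave 440, and without PtcDLoop2 replicate 3 and control replicate 3 it gave 397. Limma was run in 23 alternatives and called 0 genes in 21, with a smallest adjusted p from 0.0793 to 0.779 when each library was left out. Without both libraries with the fewest detected genes it called 5, all lower and 0 of them among the 99, and the cause was not tested. Without PtcDLoop2 replicate 3 and control replicate 3 it called 28, among them the 12 all-or-none genes and 1 of the 99, ENSGALG00000012837. The libraries left out were the nearest to the other group in that gene. A replicate block by title number gave 0 genes over the 8 libraries with a same-numbered partner, and these partners did not deviate together (correlations from -0.07 to 0.06). The sample labels name no pairs between the groups. The numbers of the deposited columns pair some libraries otherwise, and that pairing was not fitted. The log2 fold changes of the 19 genes chosen for description kept their sign in all of the 21 to 23 alternatives that tested them. They ran from -1.82 to -1.53 for ENSGALG00000025738 and from -1.90 to -1.40 for ENSGALG00000012837. In most alternatives the rule fixes the sign in advance, since every PtcDLoop2 value lies below every control value. The kept sign is therefore no support. Limma in the 4 other scalings, at a mean of at least 10 and without both replicates 3 was added after the data had been seen, as were folds without each library. The planned edgeR and DESeq2 fits on recovered reads were not run. Few reads limit the least abundant genes, whose gaps can rest on under 20 reads.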
